A study of Rattus norvegicus with 12 samples.

Results

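Synaptic vesicle release machinery is followed here through 9 genes: Snap25, Syt1, Syt2, Stx1a, Vamp1, Vamp2, Syn1, Sv2a and Rab3a. They were taken by name, as every gene probe whose transcript accession maps to one of those symbols, which gave 11 of the 30367 gene probes on the array. Snap25 and Vamp1 had 2 probes each and the other genes had 1. The tissue was the L6 dorsal root ganglion of male Fischer 344 rats, which holds the somata of the sensory neurons of that nerve root. Rats called young_AL were 6 months old and ate ad libitum. Those called old_AL were 25 to 28 months old and ate ad libitum, and those called old_CR were equally old and had food offered 3 days weekly since the age of 6 weeks, a restriction of about 40% in calories. Each group had 4 arrays, 1 per labelled replicate. The labels give neither the hour of collection nor the time since the last meal, and old_CR differs from old_AL in meal pattern as well as in intake.

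Neurons release transmitter when a vesicle fuses with the plasma membrane. The vesicle protein synaptobrevin (Vamp1 or Vamp2) zips up with syntaxin 1 (Stx1a) and SNAP-25 (Snap25) on the plasma membrane into a SNARE bundle, and a synaptotagmin on the vesicle (Syt1 or Syt2) triggers fusion when calcium enters. Synapsin (Syn1) tethers vesicles to each other, the GTPase Rab3a helps to dock them, and the glycoprotein SV2A (Sv2a) sits in the vesicle membrane and keeps vesicles competent for release. Sensory neurons of the ganglion make these proteins in the cell body and ship them along the axon to terminals in the spinal cord and the periphery, so the RNA measured here is that of the cell bodies and not of the terminals.

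The stretches just before the annotated starts of 3 of the genes are shown, those of Vamp1 and Sv2a because these were the genes whose level passed the test in 1 comparison each, and that of Syn1 because it shares a motif with Vamp1. They are RefSeq sequences of the rat assembly GRCr8, each 250 bases long, read 5′ to 3′ on the gene's strand and ending just before the start. Capitals mark 2 motifs searched on both strands: TGACGTCA, the palindromic cyclic AMP response element, and GGGCGG, the GC box, whose reverse complement is in capitals too. The Vamp1 window is chr4:159698644-159698893, the Sv2a window chr2:186430113-186430362 and the Syn1 window chrX:3725495-3725744, and all lie on the plus strand.
Vamp1: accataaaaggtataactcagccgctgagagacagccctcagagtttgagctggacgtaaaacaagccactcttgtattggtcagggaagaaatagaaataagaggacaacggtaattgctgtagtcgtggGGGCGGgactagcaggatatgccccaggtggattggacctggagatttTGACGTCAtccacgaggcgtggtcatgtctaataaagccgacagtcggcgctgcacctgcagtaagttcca
Sv2a: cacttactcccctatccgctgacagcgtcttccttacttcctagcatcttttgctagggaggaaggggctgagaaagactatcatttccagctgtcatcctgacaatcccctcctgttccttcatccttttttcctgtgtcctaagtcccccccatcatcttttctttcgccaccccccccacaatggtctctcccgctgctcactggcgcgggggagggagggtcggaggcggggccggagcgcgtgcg
Syn1: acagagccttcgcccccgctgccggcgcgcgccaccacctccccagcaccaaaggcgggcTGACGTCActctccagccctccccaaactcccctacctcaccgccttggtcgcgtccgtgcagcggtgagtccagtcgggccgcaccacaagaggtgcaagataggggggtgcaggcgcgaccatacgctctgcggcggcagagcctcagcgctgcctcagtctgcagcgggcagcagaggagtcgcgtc

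An entry was found for 8 of the 9 genes, all but Snap25. TGACGTCA stood in 2 of those 8 windows, at 71 to 64 bases before the start of Vamp1 and at 190 to 183 bases before the start of Syn1, and in 1.59% of 33469 rat windows of that length. GGGCGG stood in 5 of the 8, those of Syt1, Stx1a, Vamp1, Vamp2 and Rab3a, and in 30.5% of all windows. No match of one motif overlapped a match of the other. The windows of Syt2 and Sv2a held neither string. A match describes the letters of the window and shows neither binding nor control.

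Levels are log2 of the array's processed spot intensity minus the 75th percentile of that array, so that 0 stands for the 75th percentile, and n counts arrays. The array of old_AL 1 stood apart: its 75th percentile of intensity was 7662 against 2634 to 3110 on the other 11, it held 4026 unevenly lit spots against 1 to 208, and it correlated with the rest at a median of 0.929, where the other arrays had 0.971 to 0.994. Group differences are therefore those of a limma fit to the other 11 arrays (young_AL n = 4, old_AL n = 3, old_CR n = 4), with the value from all 12 given beside those that passed or came near, from a fit with no array weights unless weights are named. Among these 11, old_AL 4 had the lowest such correlation (0.971) and the lowest array weight (0.215). It held 190 unevenly lit spots, beside 208 on young_AL 4. The median residual SD was 0.102 with 11 arrays and 0.363 with 12. The young_AL arrays filled row 2 of 1 slide, and old_AL and old_CR filled rows 1 and 2 of another, so neither age and slide nor diet and row can be told apart. The labels do not say that each array is a separate rat, though the design lists 4 rats per group, and p-values measure the spread between these arrays. Of the 13 general neuron markers on the array, all were well above background on all 12 arrays, as was every probe of the 9 genes, and no spot of these probes was saturated.

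Vamp1 was the gene that differed most clearly between the ad libitum groups, lower in old_AL. It encodes a synaptobrevin known best from the neuromuscular junction and from spinal and sensory neurons, where it works beside Vamp2. On the 10-spot probe its level was 5.54, 5.56, 5.67 and 5.66 in young_AL, 5.38, 5.34 and 5.35 in old_AL 2, 3 and 4, and 5.60, 5.51, 5.57 and 5.60 in old_CR. Every one of these 3 old_AL arrays lay below every young_AL and every old_CR array, whereas young_AL and old_CR overlapped. On old_AL 1 the level was 6.51, above all others. Vamp1 fell by 0.25 ± 0.04 (SE) log2 in old_AL against young_AL, a decrease of 16%, with an adjusted p of 0.0271. Between old_CR and old_AL the difference was 0.21 ± 0.04, or 15.8%, with an adjusted p of 0.0541, just short of the threshold of 0.05. Set against young_AL, old_CR differed by -0.04 ± 0.04 (95% interval -0.13 to 0.05, adjusted p = 0.653).

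The second Vamp1 probe, of 2 spots, read -0.43, -0.31, -0.35 and -0.46 in young_AL, -0.54, -0.53 and -0.67 in old_AL 2, 3 and 4, and -0.40, -0.54, -0.45 and -0.42 in old_CR. Its old_AL arrays again lay below those of young_AL, but old_CR 2 reached into their range. The differences on this probe were -0.19 ± 0.05 with age (adjusted p = 0.0832 over all probes) and 0.13 ± 0.05 with diet (adjusted p = 0.177). On old_AL 1 it read -0.42, within the young_AL range, although the 10-spot probe stood highest there. The Vamp1 call with age ended with any of 5 arrays left out, young_AL 2 (adjusted p = 0.0527), young_AL 3 (0.0811), young_AL 4 (0.0518), old_AL 3 (0.0588) or old_AL 4 (0.0561), while the difference stayed between -0.27 and -0.23. With all 12 arrays it was 0.04 ± 0.23 (adjusted p = 0.927). On the 10-spot probe, without array weights, both the call and the direction thus depend on leaving out old_AL 1. The second probe kept its signs over 12 arrays, with -0.15 ± 0.08 with age (adjusted p = 0.579 over all probes) and 0.09 ± 0.08 with diet (0.652). Array weights over the 12 gave old_AL 1 only 0.00662, beside 0.333 to 3.61 for the others. A weighted fit of the 12 thus nearly leaves it out too.

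Snap25, the membrane-anchored SNARE that supplies a pair of helices to the bundle, had its lowest level in old_AL and its highest in old_CR. The 10-spot probe read 3.43, 3.49, 3.35 and 3.50 in young_AL, 3.38, 3.35 and 3.23 in old_AL 2, 3 and 4, and 3.52, 3.50, 3.59 and 3.58 in old_CR. The arrays of old_AL overlapped those of young_AL, and all 4 of old_CR lay above the 3 of old_AL. On old_AL 1 the level was 3.64. The difference between old_CR and old_AL was 0.23 ± 0.05 (17.1%, adjusted p = 0.061), which did not pass, and that between old_AL and young_AL was -0.12 ± 0.05 (adjusted p = 0.201). The other Snap25 probe gave 0.16 ± 0.05 with diet (adjusted p = 0.0885) and -0.09 ± 0.05 with age (adjusted p = 0.266), so the probes had the same sign in both. With all 12 arrays the diet difference on the 10-spot probe was 0.15 ± 0.10 (adjusted p = 0.644). On the other probe the differences were then larger, at 0.37 ± 0.17 with diet (adjusted p = 0.652 over all probes) and -0.30 ± 0.17 with age (0.579).

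Vamp2, the synaptobrevin of most central synapses, spanned 2.08 to 2.26 over the 11 arrays, with means of 2.13 ± 0.04 (SD, n = 4) in young_AL, 2.15 ± 0.07 (n = 3) in old_AL and 2.22 ± 0.05 (n = 4) in old_CR. Its groups overlapped in every comparison. The differences were 0.01 (95% interval -0.09 to 0.11) with age, 0.07 (-0.02 to 0.17) with diet and 0.09 (-0.00475 to 0.178) for old_CR against young_AL, and none passed. The difference with age had the opposite sign under median centring and under normexp background correction. The interval with age leaves a fall as large as that of Vamp1 outside it, though the difference between the 2 genes was not tested.

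Stx1a, the plasma membrane syntaxin, had 1 value that decided its fit. Its level was 2.37, 2.25, 2.27 and -3.56 in young_AL, 2.39, 2.20 and 2.17 in old_AL 2, 3 and 4, and 2.29, 2.28, 2.30 and 2.26 in old_CR. On young_AL 4 a spot of the probe had an intensity of 4.49, not well above background, and its other spot had 15066. As deposited, the difference with age was 1.42 ± 1.26 (adjusted p = 0.516). With spots left out that were not well above background and at least 16-fold below another spot of their probe on the same array, a rule chosen after seeing the data, the level on young_AL 4 was 2.29. The groups then differed by -0.04 ± 0.05 with age (95% interval -0.17 to 0.08, adjusted p = 0.636), by 0.03 ± 0.05 with diet (-0.09 to 0.15, adjusted p = 0.761) and by -0.02 ± 0.05 for old_CR against young_AL (-0.13 to 0.09, adjusted p = 0.897). The 4 old_CR arrays lay between 2.26 and 2.30. Such spots numbered 231 on young_AL 4 and 9 to 72 on the other arrays.

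Of the calcium sensors, Syt2 came nearest to the threshold. This synaptotagmin serves fast release. Its level was -0.32, -0.31, -0.33 and -0.20 in young_AL, -0.50, -0.51 and -0.42 in old_AL 2, 3 and 4, and -0.42, -0.52, -0.45 and -0.44 in old_CR. Every old array, of either diet, lay below every young_AL array, and the diet groups overlapped. The difference was -0.19 ± 0.05 in old_AL against young_AL (adjusted p = 0.0582) and -0.17 ± 0.04 in old_CR against young_AL (adjusted p = 0.0716), which share the young_AL arrays, and neither passed. Between the diets it was 0.02 ± 0.05 (95% interval -0.08 to 0.12). On old_AL 1 the level was -1.27, the lowest of all, and the difference with age over 12 arrays was -0.39 ± 0.17 (adjusted p = 0.578).

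Syt1, the best known calcium sensor of evoked release, ranged from -2.64 to -2.34 over the 11 arrays and its groups overlapped in every comparison. It averaged -2.53 ± 0.10 (SD, n = 4) in young_AL, -2.59 ± 0.07 (n = 3) in old_AL and -2.43 ± 0.09 (n = 4) in old_CR. The difference with diet was 0.16 ± 0.07 (adjusted p = 0.163), and that with age was -0.06 ± 0.07 (adjusted p = 0.576), whose sign turned under normexp background correction.

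Among the vesicle proteins, Sv2a rose in old_CR against young_AL. SV2A is the binding site of the antiseizure drug levetiracetam. Its level was -0.96, -1.07, -1.12 and -1.0 in young_AL, -0.94, -0.96 and -0.91 in old_AL 2, 3 and 4, and -0.83, -0.88, -0.80 and -0.79 in old_CR. The 3 groups did not overlap: young_AL was lowest, old_AL in between and old_CR highest, with the nearest young_AL and old_AL arrays both at -0.96 after rounding. The rise in old_CR against young_AL was 0.21 ± 0.04 (15.9%, adjusted p = 0.0334). The differences of old_AL from young_AL, 0.10 ± 0.04 (adjusted p = 0.21), and of old_CR from old_AL, 0.11 ± 0.04 (adjusted p = 0.15), did not pass. Under median centring the first of these had the opposite sign.

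The Sv2a call in old_CR against young_AL ended without young_AL 2 (adjusted p = 0.0839), young_AL 3 (0.0946), old_CR 1 (0.0891), old_CR 2 (0.0503), old_CR 3 (0.0814) or old_CR 4 (0.1), with differences of 0.19 to 0.24 over all 11 arrays left out in turn. It also ended with normexp background correction (0.051) and with no filter on dim probes (0.0618). Over all 12 arrays the difference was the same 0.21, since old_AL 1 is in neither group, but the shared estimate of the spread was larger, with an SE of 0.22, and it did not pass. On old_AL 1 the level was -2.02, far below the other old_AL arrays.

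Neither Syn1 nor Rab3a passed in any comparison. Syn1 lay between -1.10 and -0.91 on the 11 arrays, with means of -1.01 ± 0.05 (SD, n = 4) in young_AL, -1.0 ± 0.08 (n = 3) in old_AL and -1.07 ± 0.04 (n = 4) in old_CR, and its level on old_AL 1 was -3.36. The differences were 0.02 (95% interval -0.09 to 0.12) with age and -0.07 (-0.18 to 0.04) with diet, and both turned sign under median centring. Rab3a was the most variable of the genes within young_AL once the Stx1a spot was left out, at 0.93, 0.64, 0.81 and 0.94, and it averaged 0.83 ± 0.14 (n = 4) there, 0.88 ± 0.12 (n = 3) in old_AL and 0.90 ± 0.05 (n = 4) in old_CR. Its difference with age was 0.05 (95% interval -0.12 to 0.23), with the opposite sign under median centring, and its difference with diet was 0.02 (-0.16 to 0.19).

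**Figure D1:**
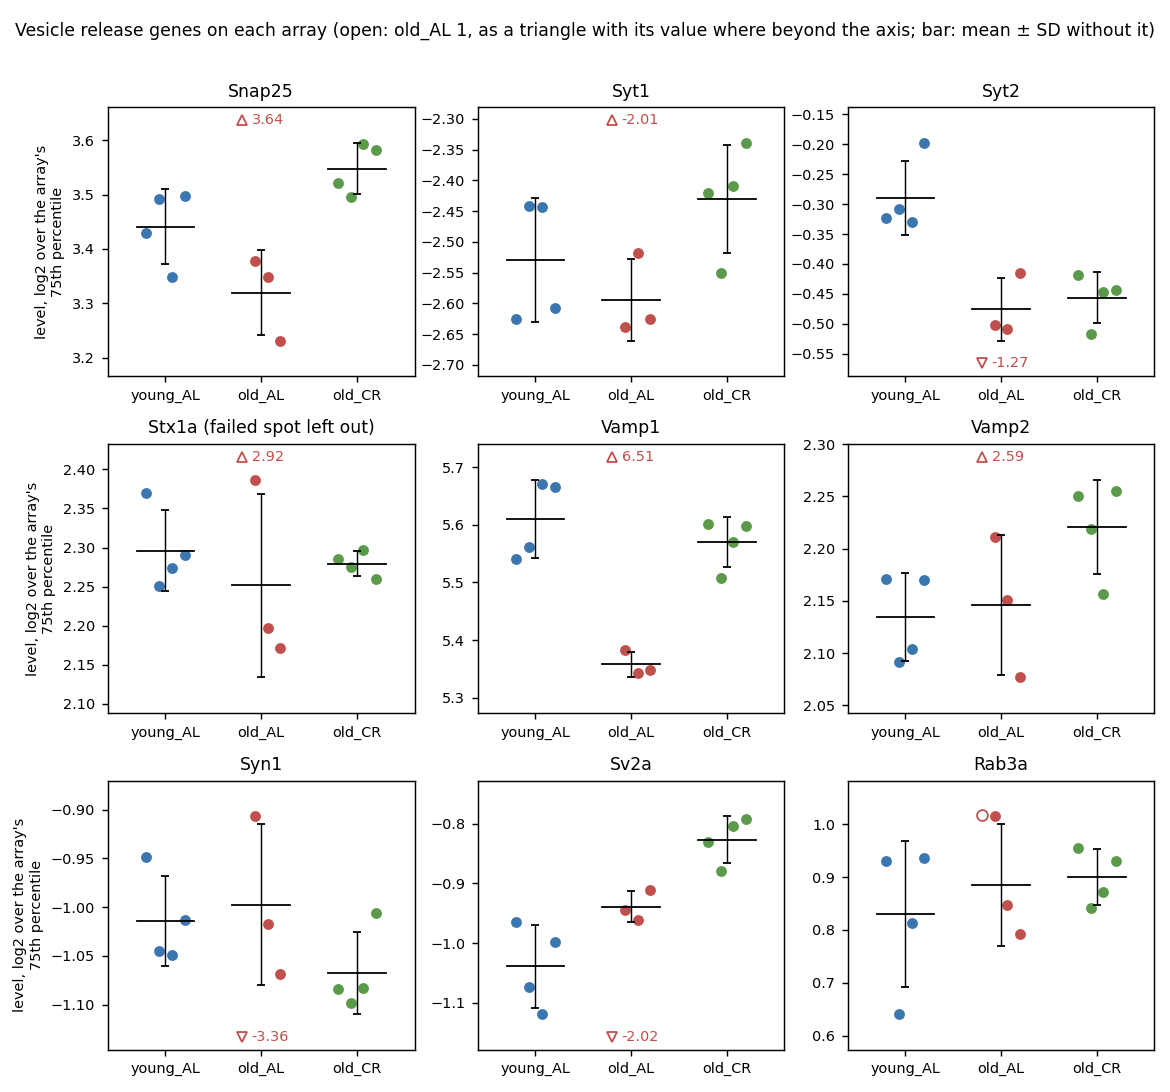
Level of each of the 9 genes on each array, as log2 over the array's 75th percentile, with 1 point per array, horizontal bars for the group mean and whiskers for the SD over 11 arrays. Open symbols show old_AL 1, drawn as a triangle with its value where it lies beyond the axis. In the Vamp1 panel the 3 filled old_AL points (5.34 to 5.38) sit below all young_AL and old_CR points, and in the Sv2a panel the groups step upward from young_AL to old_CR.

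Over the 9 genes, 1 was called lower and 0 higher in old_AL against young_AL (Vamp1), where limma called 1.25% of the 20849 genes tested lower, 2% higher and 3.24% in either direction. In old_CR against old_AL 0 were called, against 0.269% of all genes higher and 0.796% lower. At an unadjusted p under 0.05 the diet comparison had 4 of the 9 higher and 0 lower (Snap25, Syt1, Vamp1 and Sv2a), where 7.15% of all genes were higher and 19.2% lower. With age the 9 had 1 higher and 3 lower at that level, beside 14.5% and 8.59%, and in old_CR against young_AL 1 and 1, beside 6.83% and 11.5%. In old_CR against young_AL 1 was called higher and 0 lower (Sv2a), against 0.787% and 1.63% of all genes. With 12 arrays unweighted 0 of the 9 were called in any comparison, against 0.0191%, 0.00478% and 0.0191% of 20942 genes in either direction. With so few genes called overall in that fit, a count of 0 among 9 is no result about these genes, of which Syt2 alone had an unadjusted p under 0.05 with age, as did 6.71% of all genes.

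Counted by arrays that did not overlap, 2 of the 9 were lower (Vamp1 and Syt2) and 1 higher (Sv2a) in old_AL against young_AL, beside 7.67% and 11.9% of all genes. Between the diets 3 were higher in old_CR (Snap25, Vamp1 and Sv2a) and 0 lower, beside 8.24% higher and 15.3% lower. Between old_CR and young_AL 1 was higher (Sv2a) and 1 lower (Syt2), beside 5.59% and 10.2%. With the Stx1a spot left out, 8 of the 9 differences between the diets were above 0 and their median was 0.07, where the median of all genes was -0.05 and 37.1% of them were above 0. With age 4 of the 9 were above 0 and in old_CR against young_AL 5, beside 59.2% and 44.3% of all genes. The median of the 9 was -0.04 with age and 0.07 for old_CR against young_AL, beside 0.03 and -0.02 for all genes. With the spot kept these medians were 0.01 and 0.09, and that with diet was unchanged at 0.07. The 3 comparisons share arrays pairwise, so they are not independent of each other: an old_AL group that reads low gives both a fall with age and a rise with diet. The 9 genes also moved together on some arrays. Above their group mean lay 8 of them on old_CR 4, 0 on old_CR 2, 2 on old_AL 4 and 3 to 7 on the other arrays used. Counts of genes are therefore not counts of separate observations.

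The reference level matters for these small differences. Centring each array on its median in place of its 75th percentile moved the median difference of all genes by -0.101 with age and by 0.101 with diet, and by 0.000259 in old_CR against young_AL. With median centring 3 of the 9 were called lower with age (Snap25, Syt2 and Vamp1), where 12.4% of all genes were, and 4 higher with diet (Snap25, Syt1, Vamp1 and Sv2a), where 8.76% were. Under it the share of higher calls among all genes with age went from 61.5% to 13.1%, as lower calls went from 260 to 2578, and that with diet from 25.2% to 86.7%, as higher calls went from 56 to 1826, whereas normexp gave 86.3% and 11% and quantile normalization 28.1% and 57.9%.

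**Figure D2:**
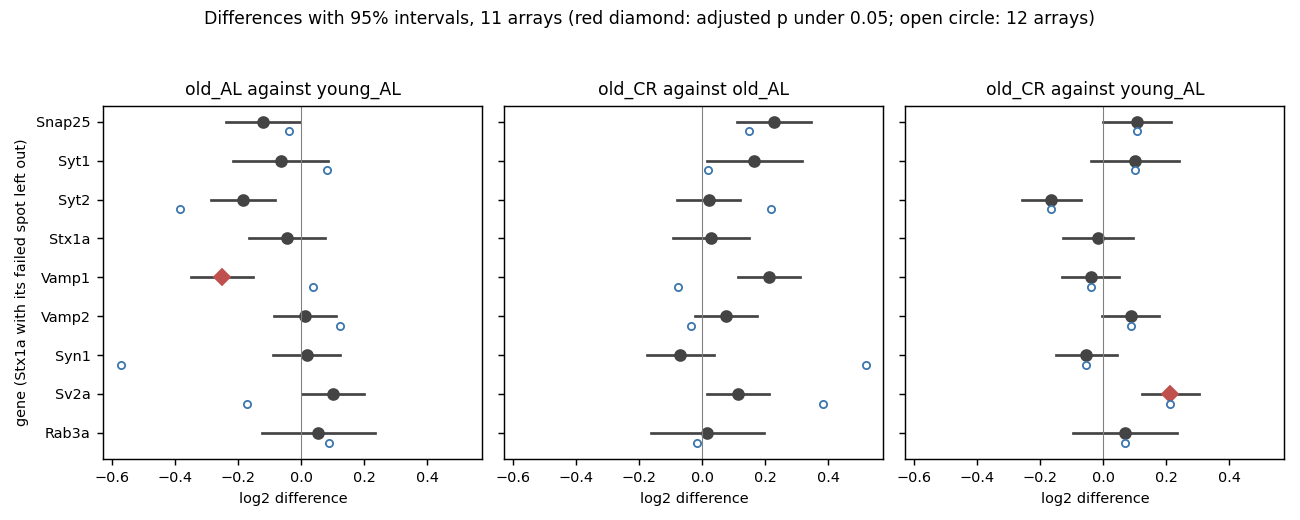
Differences in log2 between groups for each gene, with 95% intervals from the fit of 11 arrays, for the 3 comparisons. Red diamonds passed the threshold (Vamp1 with age at -0.25, Sv2a in old_CR against young_AL at 0.21), and open circles give the value from 12 arrays, which for Vamp1 with age is 0.04. Stx1a is drawn with its failed spot left out and has no open circle.

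Around these 9 genes, 126 other genes of vesicle release and recycling were followed in 7 lists by role, of which 108 were tested. With age 1 was called higher and 1 lower, with diet 0 higher and 1 lower, and in old_CR against young_AL 1 higher and 0 lower. The medians of the 108 differences were 0.02, 0.00348 and 0.00677, beside 0.03, -0.05 and -0.02 for all genes tested. The calls, 2, 1 and 1 of 108, stand beside 3.24%, 1.06% and 2.41% of all genes. At an unadjusted p under 0.05 the 108 had 9 higher and 11 lower with age, beside 14.5% and 8.59% of all genes. They had 15 and 13 with diet, beside 7.15% and 19.2%, and 9 and 10 in old_CR against young_AL, beside 6.83% and 11.5%.

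The lists leave out the release genes followed above, such as Vamp1 and Snap25. The genes called in the lists were Dnajc5, Rab3il1, Rab27a and Vamp4. Dnajc5, which encodes the vesicle chaperone cysteine string protein that keeps SNAP-25 folded, fell by 0.17 ± 0.03 with age (adjusted p = 0.0391), from -1.57, -1.54, -1.50 and -1.55 in young_AL to -1.67, -1.76 and -1.69 in old_AL 2, 3 and 4. Its old_CR arrays, at -1.67, -1.67, -1.65 and -1.69, also lay below young_AL, with a difference of -0.13 ± 0.03 (adjusted p = 0.0662). Rab3il1, an exchange factor for Rab3 and Rab8 GTPases that is not confined to neurons, rose by 0.75 ± 0.15 with age (adjusted p = 0.0388). It read -4.05, -4.54, -4.38 and -3.83 in young_AL, -3.60, -3.36 and -3.40 in old_AL 2, 3 and 4, and -4.03 to -3.83 in old_CR.

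Rab27a, a GTPase of secretory granules and lysosome-related organelles, fell by 0.26 ± 0.05 in old_CR against old_AL (adjusted p = 0.0489), with 0.33 to 0.43 in old_CR below 0.56 to 0.70 in old_AL. Vamp4, a synaptobrevin relative of the trans-Golgi network, rose by 0.24 ± 0.05 in old_CR against young_AL (adjusted p = 0.036), but its second probe gave -0.01 and the mean of its probes did not pass (adjusted p = 0.228). Leaving out 1 array at a time, the call of Dnajc5 held in 0 of 11 fits (adjusted p from 0.0515 to 0.107), that of Rab3il1 in 1, that of Rab27a in 1 and that of Vamp4 in 3. The highest adjusted p values of the last 3 were 0.103, 0.138 and 0.108. None of the 4 passed with all 12 arrays unweighted. All 4 passed with array weights over the 12 (adjusted p from 0.0184 to 0.030). Those weights nearly leave out old_AL 1 again (weight 0.00662), so that fit is no separate support.

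By role, the 11 other SNARE genes had medians of 0.04 with age, -0.00279 with diet and 0.04 in old_CR against young_AL, with Vamp4 the 1 call. The 14 tested genes among other synaptotagmins and Doc2 sensors had medians of 0.12, -0.01 and -0.05 with 0 called in each, and Syt11, an inhibitory synaptotagmin of endocytosis, had the smallest p with age (-0.17 ± 0.05, adjusted p = 0.0804). Partners that prime or take apart SNARE bundles (17 tested) had 0 calls, and Stxbp2, a Munc18 form found mainly outside neurons, had 0.56 ± 0.17 with age (adjusted p = 0.0965). The 10 active zone scaffold genes had 0 calls and medians of 0.01, 0.03 and 0.01, with Erc2 at 0.09 ± 0.04 with age (adjusted p = 0.278).

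Other vesicle membrane and tethering proteins (21 tested) held Rab3il1, Dnajc5 and Rab27a and had medians of 0.04, -0.06 and -0.06. Vesicle loading genes (12 tested) had 0 calls, and Slc17a6, the vesicular glutamate transporter of sensory neurons, differed by -0.10 ± 0.04 with age (adjusted p = 0.124) and 0.09 ± 0.04 with diet (adjusted p = 0.141). Its old_AL arrays, at 2.79 to 2.82, lay below those of both other groups. Vesicle retrieval genes (23 tested) also had 0 calls. Itsn1, an endocytic scaffold with the smallest p of that list with age, had probes that differed in sign: -0.19 ± 0.05 on the brightest, 0.22 ± 0.07 and 0.16 ± 0.05 on the other two. With diet 1 of those probes, not the brightest, reached an adjusted p of 0.0305 at -0.32 ± 0.05.

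**Figure D3:**
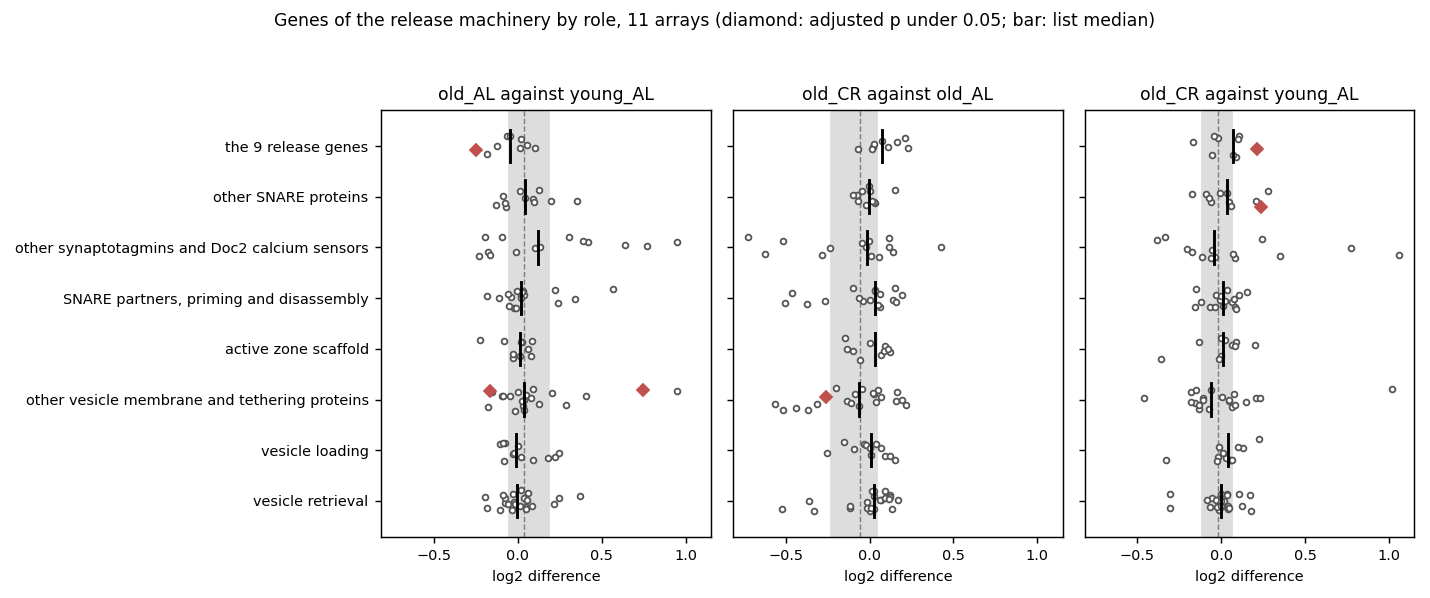
Log2 differences of the tested genes of each role list, 1 point per gene, for the 3 comparisons over 11 arrays, with a thick bar at the list's median, a grey band for the middle 50% of all genes tested and a dashed line at their median. Diamonds passed the threshold, and most points of each list lie near 0. Stx1a is drawn with its failed spot left out.

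Markers of the cells that a ganglion holds moved in the same comparisons. In bulk tissue fewer cells of a type and less RNA per cell cannot be told apart. The 13 general neuron markers tested had a median of -0.07 with age, 0.03 with diet and -0.05 in old_CR against young_AL, and their mean level was 3.86 to 3.94 in young_AL, 3.79 to 3.83 in old_AL and 3.8 to 3.87 in old_CR. With age 2 of them were called lower, the neurofilament gene Nefl (-0.31 ± 0.04, adjusted p = 0.0133) and the transcription factor gene Isl1 (-0.19 ± 0.04, adjusted p = 0.048), and with diet Isl1 was called higher (0.31 ± 0.04, adjusted p = 0.0289). Of all genes 1.25% were called lower with age and 0.269% higher with diet. The Isl1 call with age was lost without any 1 of the 11 arrays (adjusted p from 0.0518 to 0.107), and the Nefl call with age held without each. Nefl passed with age in 10 of 14 other settings. It did not with all 12 arrays unweighted (-0.33, adjusted p = 0.341), the 2 groups alone (0.0947) or a replicate block (0.0676).

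Markers of large-diameter sensory neurons, which carry touch and limb position, were below 0 with age in 7 of the 9 tested and above 0 with diet in 7. Runx3 and Spp1 went the other way in both, with 0.05 and 0.18 with age and -0.19 and -0.19 with diet. Of all genes, 59.2% were above 0 with age and 37.1% with diet. Of the 9 markers, 2 were called lower with age, Nefh (-0.25 ± 0.05, adjusted p = 0.0359) and Pvalb (-0.23 ± 0.04, adjusted p = 0.0324), and 0 higher. The shares called over all genes were 1.25% lower and 2% higher. The list's median was -0.15 with age and 0.15 with diet, where 0 were called and 5 of 9 had old_CR arrays all above old_AL, beside 8.24% of all genes. Its mean level was 0.79 to 0.92 in young_AL, 0.69 to 0.77 in old_AL and 0.78 to 0.81 in old_CR. Nefh was also called lower in old_CR against young_AL (-0.22 ± 0.05, adjusted p = 0.0401), where Vamp1 was not. There 1 of the 9 markers was called lower, beside 1.63% of all genes. The Nefh call with age held in 1 of 11 fits with an array left out and that of Pvalb in 4, with adjusted p up to 0.0939 and 0.0814. With all 12 arrays Pvalb had the opposite sign unweighted (0.09, adjusted p = 0.828). It did not with array weights (-0.21, adjusted p = 0.0412), where old_AL 1 weighed 0.00662. The part of these cells in the Vamp1 difference was not tested.

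Nociceptor markers had medians of 0.000886 with age and 0.00763 with diet. Trpa1 was called higher (0.43 ± 0.09) and Mrgprd lower (-0.42 ± 0.09) with age, but with an array left out the calls held in 0 and 1 of 11 fits, and Trpa1 was at -0.14 over all 12 arrays unweighted. Each was 1 of 9 tested, beside 2% of all genes called higher and 1.25% lower. Satellite glia markers had a median of -0.02 with age and -0.14 with diet, and those of myelinating Schwann cells -0.21 and -0.07. The glial glutamate transporter gene Slc1a3 was called lower with diet (-0.36 ± 0.05), a call that held in 5 of 11 fits with an array left out. It was 1 of 8 satellite glia markers tested, beside 0.796% of all genes called lower. In old_CR against young_AL the satellite glia markers Slc1a3, Fabp7 and Sox10, the Schwann cell marker Pmp22, the fibroblast collagen gene Col1a1 (-0.92) and Nefl (-0.21) were called lower. With an array left out these calls held in 11, 4, 2, 3, 6 and 3 of 11 fits, in that order. They were 3 of 8 satellite glia, 1 of 7 Schwann cell, 1 of 5 fibroblast and 1 of 13 general neuron markers. Of all genes 1.63% were called lower there. The fibroblast list did not fall with Col1a1 in that comparison: 3 of its 5 genes were above 0, and its median was 0.00652. All 8 macrophage markers were above 0 with age, as were 59.2% of all genes, and the median of the 8 was 0.94. Of the 8, 2 were called higher, beside 2% of all genes: Cd163 (1.81 ± 0.35) and Mrc1 (1.13 ± 0.23). Each of these calls held in 2 of 11 fits with an array left out, and over all 12 arrays unweighted the differences were 0.93 (adjusted p = 0.578) and 0.42 (adjusted p = 0.664). The mean level of the 8 was -3.20 to -2.69 in young_AL, -2.23 to -1.68 in old_AL and -2.52 to -2.04 in old_CR. By group it was highest in old_AL, where Vamp1 and Snap25 had their lowest means, but old_AL and old_CR overlapped. Among the old_AL arrays used it was highest on old_AL 3, where Vamp1 was lowest, and lowest on old_AL 4, where Snap25 was lowest. Of the spinal cord and motor neuron markers, 3 of 7 were well above background on all 12 arrays, Olig2 on 0, and Chat reached -4.84 on old_AL 4 against -7.45 to -6.66 on the other arrays used. In that list the water channel gene Aqp4, known best from astrocytes, was called higher with diet (1.0 ± 0.16, adjusted p = 0.0363) and in old_CR against young_AL (1.49 ± 0.15, adjusted p = 0.0049), where Sv2a was called. Aqp4 was 1 of 5 tested in that list, where 0.269% and 0.787% of all genes were called higher in these comparisons. It read -4.82 to -4.37 in young_AL, -4.37 to -3.73 in old_AL and -3.17 to -2.82 in old_CR. The first of these calls held in 3 of 11 fits with an array left out and the second in 11. These values are those of the brightest Aqp4 probe. With the mean of its probes the difference with diet was 0.36 and did not pass (adjusted p = 0.135). That in old_CR against young_AL was then 0.76 (adjusted p = 0.0199). The muscle marker mean was -3.56 on 1 young_AL array, young_AL 2, and -5.70 to -4.60 on the other arrays used. What these cells contribute to the differences of the release genes was not tested.

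**Figure D4:**
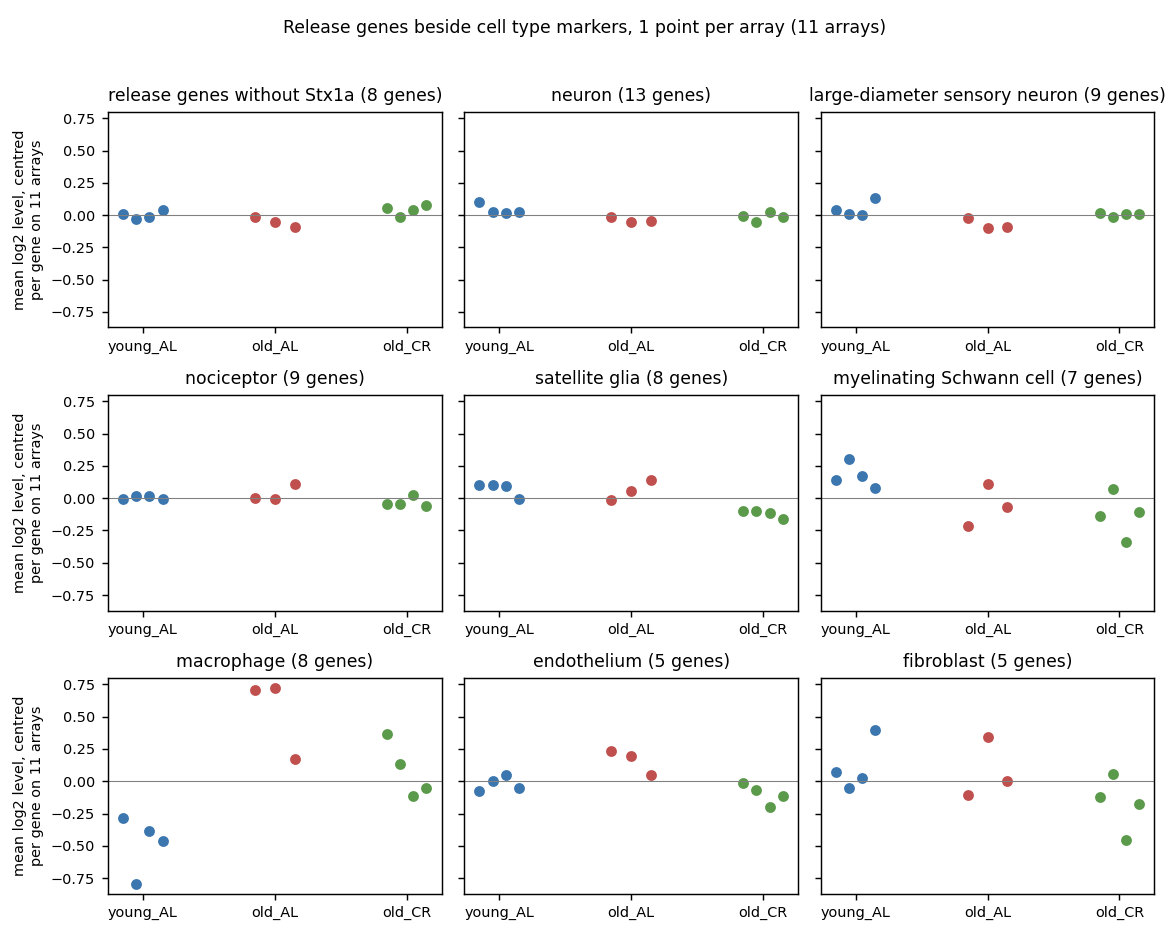
Mean log2 level of the release genes without Stx1a and of 8 marker lists on each of the 11 arrays, each gene centred on its mean, with 1 point per array. The release genes stay near 0 on every array, with old_AL 3 and 4 lowest. General neuron and nociceptor markers also stay near 0, and macrophage markers are lowest in young_AL.

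Over the 11 arrays the genes whose levels followed the mean profile of the 9 most closely, among 11553 candidates, were Syt3, Vps18, Pwwp2b, Tnfrsf21 and Pcyox1, with Pearson r from 0.981 to 0.985. All 5 were low on young_AL 4, with differences of -3.92 to -1.96 from the mean of the other young_AL arrays, and 4 of the 5 had a failed spot there, as Stx1a had. With Stx1a left out of the profile, a choice made after seeing the data, the closest were Magee1 (r = 0.950), Pc (0.946), Dnpep (0.944), Zfp622 (0.937) and Hspa12a (0.935). Each of these 5 was lowest on old_AL 4, and each but Hspa12a was highest on old_CR 4. These correlations run over arrays of 2 slides, 1 with young_AL and 1 with both old groups.

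**Figure D5:**
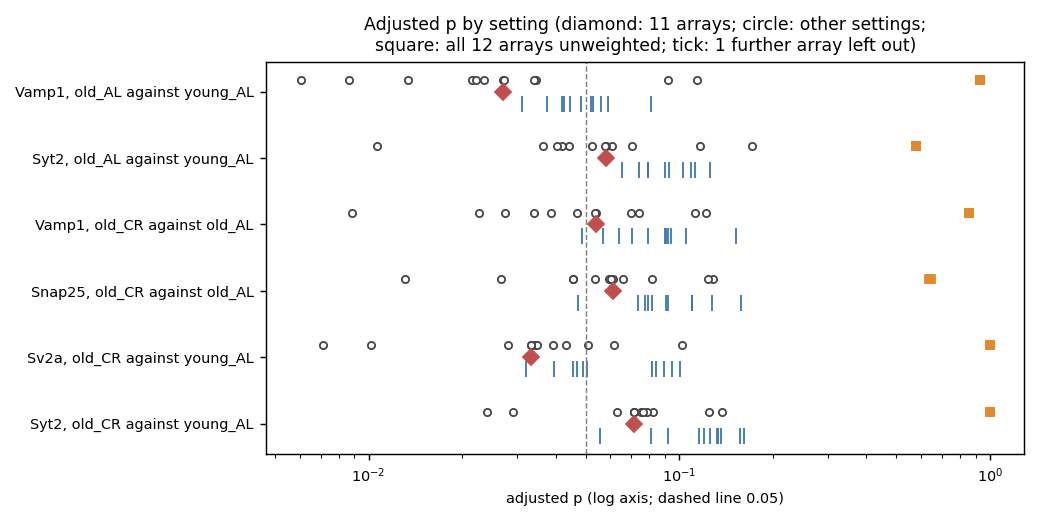
Adjusted p of 6 gene and comparison pairs under each setting, on a log axis with a dashed line at 0.05. Diamonds are the fit of 11 arrays, circles other settings, squares all 12 arrays without weights and ticks fits with 1 further array left out; the points of each pair lie on both sides of the line.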

How the data were processed

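Total RNA from 12 ganglion samples was converted to Cy3-labelled cRNA for one-colour Agilent arrays, per the labels' protocols. The authors deposited spot intensities on a linear scale from Agilent Feature Extraction 10.7, background-subtracted by that software, per the file headers and the submitters' processing notes. The deposited table of the series held the same intensities (largest difference 0). The headers tag the array design with an older genome build, and GRCr8 was used for names and promoter sequences only.

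Log2 of the intensity minus each array's 75th percentile was analysed. Control spots were dropped, outlier-flagged spots became missing values, and spots of a probe were averaged. Probes well above background (a share of at least 0.5 of spots) on fewer than 4 arrays were left out, and a gene was its brightest probe. Of 30367 probes, 17998 matched 15154 symbols through RefSeq accessions, and 12369 kept their accession. Groups were compared with limma 3.58.1 (lmFit, eBayes) in R 4.3.3 and the data.table package (version 1.17.8), with Benjamini-Hochberg adjustment over all genes tested at 0.05. The fit was tested on simulated data. Groups and numbers came from the source names.

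The 9 genes, the 7 pathway lists, the 10 marker lists and the choice to leave out old_AL 1 were made with earlier results of these data known. Beyond the 9, the genes named were those of a pathway list that passed (or the smallest p with age), up to 3 per marker list with the smallest p, and the 5 most correlated with the mean profile. Same-numbered arrays of different groups did not deviate together (correlations from -0.088 to 0.086 over 10 pairs), so the number was not used as a block. Alternatives were other normalizations and filters, all 12 arrays, array weights, the 2 groups alone, a replicate block, each array left out, and failed spots left out. The number of arrays limits the precision.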

Additional observations from a re-analysis of the deposited data

Results flagged for a closer look

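In each group of 4 arrays the highest or lowest value of a probe was set against Dixon's 95% criterion for a value far from the others. Of 33 sets (11 probes in 3 groups), 8 had such a value, where chance gives about 1 set in 20. Of these, 5 were old_AL 1: Vamp1 at 6.51 (others 5.34 to 5.38), Sv2a at -2.02 (-0.96 to -0.91), Syt2 at -1.27 (-0.51 to -0.42), the second Snap25 probe at 1.27 (2.06 to 2.11) and Syn1 at -3.36 (-1.07 to -0.91). The array thus read higher than its group on the 10-spot Vamp1 probe and lower on the other 4, on a scan where 4026 spots were unevenly lit.

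The other 3 were Stx1a on young_AL 4 at -3.56 (others 2.25 to 2.37), where 1 of 2 spots read 4.49, Syt2 on young_AL 4 at -0.20 (others -0.33 to -0.31), and Syn1 on old_CR 4 at -1.01 (others -1.10 to -1.08). The Syt2 value lies on the side away from the old arrays. Without young_AL 4 the difference of Syt2 with age was -0.15 (adjusted p = 0.0898), the smallest found with any 1 of the 11 arrays left out.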

How the results depend on the processing

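Of the single-gene values under other settings (9 genes, 3 comparisons), 590 kept direction and side of the threshold, 22 newly passed, 18 no longer passed and 45 turned sign. With all 12 arrays unweighted, the calls of Vamp1 and Sv2a were lost. Every probe of the 9 genes was well above background on all 12 arrays, and the number of arrays limits the precision. Except where said, the cause of a change was not tested. Settings with array weights over all 12 arrays and those that leave out failed spots were chosen after seeing the data. Array weights over all 12 gave old_AL 1 a weight of 0.00662 and so nearly left it out.

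Of the 9 genes, 1 was called with age. It was 0 with all 12 arrays (with or without failed spots), with the 2 groups alone and with a replicate block, 2 with quantile normalization, normexp or array weights (11 or 12 arrays), 3 with median centring, and 0 to 1 with an array left out. With diet the 0 became 1 with quantile normalization or the strict filter (a probe above background everywhere), 2 with normexp or array weights (11 or 12 arrays), 4 with median centring, and 0 to 2 with an array left out. In old_CR against young_AL the 1 became 0 with 12 arrays (with or without failed spots), normexp, no filter on dim probes or a replicate block, 2 with array weights (11 or 12 arrays), and 0 to 1 with an array left out.

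Of the 108 pathway genes, 2 were called with age. The count was 0 with 12 arrays (with or without failed spots), the 2 groups alone or the block, 1 with no filter, 4 with weights over 12 arrays, 7 with quantile, 11 with normexp, 16 with median centring, and 0 to 1 with an array left out. With diet the 1 became 0 with 12 arrays (with or without failed spots), no filter, the mean of a gene's probes, the 2 groups alone or the block, 2 with the strict filter, 4 with quantile or weights over 12 arrays, 6 with weights, 17 with median centring, 20 with normexp, and 0 to 6 with an array left out. In old_CR against young_AL the 1 became 0 with 12 arrays (with or without failed spots), no filter, the mean of probes or the block, 2 with median centring or the strict filter, 4 with the 2 groups alone, 11 with weights, 14 with weights over 12 arrays, and 0 to 4 with an array left out.

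Over all genes, 676 were called with age. The count was 4 with 12 arrays (5 without failed spots), 20 with the replicate block, 27 with the 2 groups alone, 1019 with weights over 12 arrays, 1270 with quantile, 2968 with median centring, 3838 with normexp, and 70 to 402 with an array left out. With diet the 222 became 1 with 12 arrays (with or without failed spots) or the block, 0 with the 2 groups alone, 128 with no filter, 370 with the strict filter, 618 with quantile, 934 and 1209 with weights over 12 and 11 arrays, 2107 with median centring, 4732 with normexp, and 1 to 924 with an array left out. In old_CR against young_AL the 503 became 4 with 12 arrays (with or without failed spots), 17 with the block, 226 with no filter, 836 with the 2 groups alone, 1775 and 1937 with weights over 11 and 12 arrays, and 42 to 862 with an array left out.

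With all 12 arrays, failed spots kept or not, these log2 differences turned sign: with age Syt1 (0.081), Vamp1 (0.037), Syn1 (-0.57) and Sv2a (-0.17), and with diet Stx1a (-0.14), Vamp1 (-0.077), Vamp2 (-0.036), Syn1 (0.52) and Rab3a (-0.018). Under median centring Vamp2 (-0.089), Syn1 (-0.085), Sv2a (-0.0014) and Rab3a (-0.047) turned with age and Syn1 (0.031) with diet. Under normexp Syt1 (0.022) and Vamp2 (-0.0100) turned with age and Syt2 (-0.0085) with diet, and under quantile normalization Syn1 (-0.015) with age and Rab3a (-0.00042) with diet. Leaving out failed spots turned Stx1a with age (-0.045) and in old_CR against young_AL (-0.017, also over 12 arrays). With an array left out the difference with age ranged from -0.046 to 1.93 for Stx1a, -0.020 to 0.047 for Vamp2, -0.029 to 0.052 for Syn1 and -0.011 to 0.10 for Rab3a. With diet it ranged from -0.012 to 0.095 for Stx1a and -0.031 to 0.080 for Rab3a, and in old_CR against young_AL from -0.019 to 1.96 for Stx1a.

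The replicate number as a block ended the calls of Vamp1 with age (-0.26, adjusted p = 0.0918) and of Sv2a in old_CR against young_AL (0.21, adjusted p = 0.102) and turned Stx1a (-0.23) and Rab3a (-0.011) with diet. Of the 11 arrays, 4 correlated best with an array of their own number. No chance level was worked out for that count, so it cannot show whether these numbers pair the arrays. The numbers used came from the source names. Titles number the samples differently, and a pairing by title was not tested. With the 2 groups alone Vamp1 with age had an adjusted p of 0.114, with fewer arrays behind the spread.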
